A study of Mus musculus with 4 samples.

Results

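The 1999 autosomal CG sites with the most reads in targeted bisulfite sequencing of mouse sperm were analysed here. A CG site was eligible when it carried 10 or more reads in all 4 libraries after its strands were added together, which held for 1917405 sites on chromosomes 1 to 19. Members were the eligible sites above the 99.9th percentile of reads in 2 or more of the 4 libraries, so that 0.104% of the eligible sites were chosen, and chosen by their reads. Sites no more than 1 kb apart were joined into clusters, which gave 241 clusters. By this choice the median member carried between 636 and 870 reads in a library, and the median of the other eligible sites between 24 and 31.

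The study compared fractions of sperm from wild-type C57BL/6 mice, 11 to 12 weeks old by the study's methods. Swim-up sperm are motile cells that swim out of the epididymal suspension, and HRCS are histone replacement-completed sperm, dense heads spun through Percoll after mild sonication had removed the tails. The study took HRCS from sperm of the caudal epididymis and vas deferens, and describes swim-up sperm from cultivated caudal epididymis. Each fraction has 2 libraries, and no treatment, transgene or deletion separates them. DNA was captured with probes, bisulfite-treated and read by a post-bisulfite adapter protocol, here called TGBS, and the labels do not say whether the replicates came from separate animals.

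Repeated DNA is the background to these sites. Ribosomal RNA genes and satellite DNA stand in long tandem arrays of which an assembled genome holds only some units, and reads from the missing units can be placed on the units that are present. In bisulfite sequencing a cytosine that resists conversion is counted as methylated, and the methylation level is the share of such reads at a site. At a repeated sequence this level is an average over all copies whose reads were placed there.

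The files use the mm9 build, and the genome at hand was mm10, so each cluster was looked up in mm10 by the distances between its CG sites and the 20 CG sites on each side. This pattern of at least 41 CG sites was found once for 223 of the 241 clusters, always on the labelled chromosome, and not at all for the other 18. The letters between the CG sites were not compared. In mm10 with GENCODE M21 genes, 60 of the 223 clusters overlapped an exon, 70 lay in an intron and 93 lay between genes. A window of 150 bases around the member with the most reads had at least 90% identity over at least 80% of its length to a median of 6 places in mm10, itself included, and to as many as 17790. For 51 clusters with 894 members the window had no other such place. Another 95 clusters with 760 members had 2 to 9 places, and 77 clusters with 293 members had 10 or more. Only the assembled chromosomes of mm10 were searched, so places on its unplaced sequence were not counted.

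Sequences of mm10 around the most-read member of 9 clusters show what kinds of DNA these sites lie in. They are 120 bases of the plus strand, with the CG of each member site in capitals. The first 3 show one family on 3 chromosomes, at chr2:98667090-98667209 in an exon of Gm10800, at chr12:3109967-3110086 between genes and at chr9:35305375-35305494 in an intron of Gm33838. They were poor in G and C, at 37.5, 35.0 and 35.8%, and held 6, 1 and 2 CG sites, all of them members.
Chromosome 2, Gm10800: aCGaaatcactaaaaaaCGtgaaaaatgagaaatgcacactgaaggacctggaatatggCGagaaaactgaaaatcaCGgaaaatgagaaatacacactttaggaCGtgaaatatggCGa
Chromosome 12: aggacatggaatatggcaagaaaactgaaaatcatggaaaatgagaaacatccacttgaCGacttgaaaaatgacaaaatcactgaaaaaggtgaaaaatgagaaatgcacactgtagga
Chromosome 9, Gm33838: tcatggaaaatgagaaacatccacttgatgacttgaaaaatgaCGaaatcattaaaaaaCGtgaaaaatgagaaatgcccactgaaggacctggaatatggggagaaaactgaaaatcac

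The next sequence, chr17:39845243-39845362, lies in the ribosomal RNA block. It held 15 CG sites, all of them members, and 70.8% G and C.
Chromosome 17, rRNA block: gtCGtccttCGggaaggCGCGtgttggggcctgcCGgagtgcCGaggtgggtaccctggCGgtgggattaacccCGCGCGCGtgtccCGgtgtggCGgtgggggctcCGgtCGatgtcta
Windows at 5S ribosomal RNA genes stand for a family spread over the genome, at chr11:74319837-74319956, which n-R5s71 overlaps in part, and chr16:33001935-33002054 at n-R5s33. The first CG in capitals at n-R5s71 lies in the gene and the second past its annotated end, and the second is a site at which the fractions differed in the test given further on.
Chromosome 11, n-R5s71: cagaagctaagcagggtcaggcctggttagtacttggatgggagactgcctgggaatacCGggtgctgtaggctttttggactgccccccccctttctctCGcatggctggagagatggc
Chromosome 16, n-R5s33: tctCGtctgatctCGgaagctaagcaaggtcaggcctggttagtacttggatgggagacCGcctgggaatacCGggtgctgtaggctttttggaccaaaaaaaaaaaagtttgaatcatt

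The last set comes from protein-coding sequence with close relatives elsewhere, at chr10:58231854-58231973 in Duxf3, chr10:58223936-58224055 in AW822073 and chr10:81178084-81178203 in Eef2. Duxf3 belongs to the double homeobox (Dux) genes, and Eef2 encodes the elongation factor that moves the ribosome along the messenger RNA.
Chromosome 10, Duxf3: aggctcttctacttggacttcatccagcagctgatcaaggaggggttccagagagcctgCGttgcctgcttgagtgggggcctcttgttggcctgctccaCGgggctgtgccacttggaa
Chromosome 10, AW822073: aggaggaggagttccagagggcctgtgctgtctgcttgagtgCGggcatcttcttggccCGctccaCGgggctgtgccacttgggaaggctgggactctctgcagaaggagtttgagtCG
Chromosome 10, Eef2: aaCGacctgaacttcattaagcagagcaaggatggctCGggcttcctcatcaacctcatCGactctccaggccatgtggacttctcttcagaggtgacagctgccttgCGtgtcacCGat

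The libraries held 78562921 and 71379227 reads at CG sites in swim-up sperm versus 89403347 and 78381101 in HRCS, where a read counts once at each CG site that it covers. The percentile that set membership stood at 277, 258, 340 and 298 reads in the same order. Of the members, 1628 lay above it in all 4 libraries, 146 in 3 and 225 in 2, and of these 225 sites 89 passed in both swim-up libraries, 87 in both HRCS libraries and 49 in 1 library of each. HRCS replicate 2 stood apart at the satellite family, as given below with and without it.

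**Figure D1:**
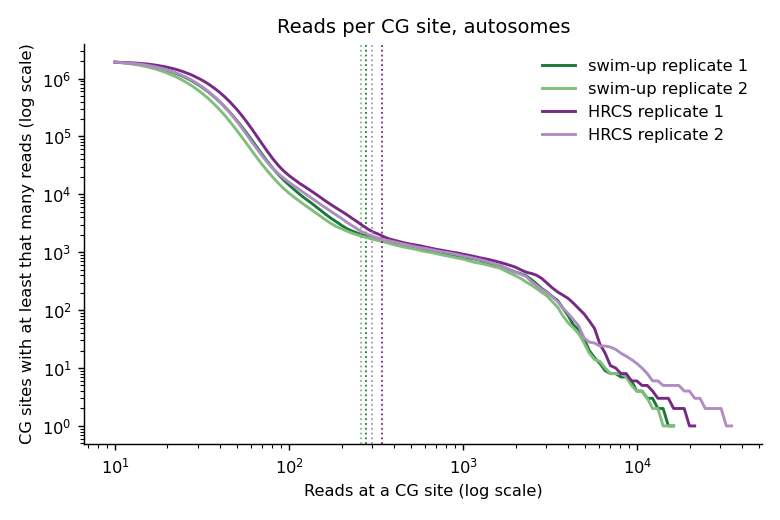
Number of eligible CG sites (y axis, log scale) with at least a given number of reads (x axis, log scale), with 1 line per library and dotted lines at the 99.9th percentiles of 258 to 340 reads. Each curve bends near its percentile and runs on beyond it, to 36658 reads in HRCS replicate 2 and 16616 in swim-up replicate 2.

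The members took 3.29 and 3.32% of all reads in the swim-up libraries versus 3.44 and 3.52% in the HRCS libraries. Scaled to RPM, the reads at a site for every 1000000 reads at CG sites of its library, they had a median of 9.09 and 8.91 in swim-up sperm versus 9.73 and 10.1 in HRCS, beside 0.331 to 0.347 at the other sites. These reads chose the members, so the values describe them and were not tested. The limit itself cut through a continuous range. Among those just inside it were the members chr5:15186622 with 427, 246, 229 and 299 reads and chr4:118221182 with 79, 139, 341 and 347, in the order swim-up replicates 1 and 2 and HRCS replicates 1 and 2. Just outside lay chr1:172994149 with 224, 335, 340 and 262 reads, chr18:82390614 with 255, 206, 400 and 298, and chr2:98502758 with 313, 255, 192 and 298.

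Most clusters were small. Of the 241 clusters, 77 had 1 member, 136 spanned at most 100 bp and the median cluster had 3 members, while the 33 clusters with 10 or more members held 1384 of the 1999. Joining clusters up to 500 kb apart left 96 neighbourhoods, 64 of them a lone cluster. The distribution over chromosomes was uneven. Chromosome 17 held 599 members, or 0.635% of its eligible sites, chromosome 11 held 462 (0.270%) and chromosome 8 held 272 (0.234%), whereas chromosome 3 held 5 (0.00606%).

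Most reads lay on the minus strand at the members and elsewhere, but by a smaller margin at the members. On the minus strand, in the notation of the tables, lay 70.3, 67.1, 69.4 and 68.9% of the members' reads, against 93.4 to 93.5% at the other sites. Less than an even share of the reads lay on the minus strand at 18.9 to 22.3% of the members and at 2.37 to 2.50% of the other sites. The spacing of CG sites recurred more often too. The 4 distances that run through a site were found again elsewhere for 53.0% of the members and 48.0% of the other sites, the 6 distances for 13.5 and 5.06%, and the 8 distances for 5.75 and 0.754%.

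The methylation level, which the choice of members did not use, had a mean of 38.2 and 38.2% over the members in the swim-up libraries versus 38.1 and 37.7% in the HRCS libraries. At the other sites it was 31.2 and 30.9% in swim-up sperm versus 31.1 and 31.0% in HRCS. Levels in the middle of the range set the members apart. Between 13.7 and 14.8% of the members had a level over 25 to 50%, and 12.5 to 12.9% a level over 50 to 75%, against 3.07 to 3.10% and 2.91 to 3.01% of the other sites. The members with a level up to 25% were fewer, 48.4 to 49.7% against 65.9 to 66.2%, and those over 75% made up 24.0 to 24.6% against 27.8 to 28.0%. The mean over sites is carried by a few large clusters. With 1 mean per cluster the level was 50.9% in both fractions.

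**Figure D2:**
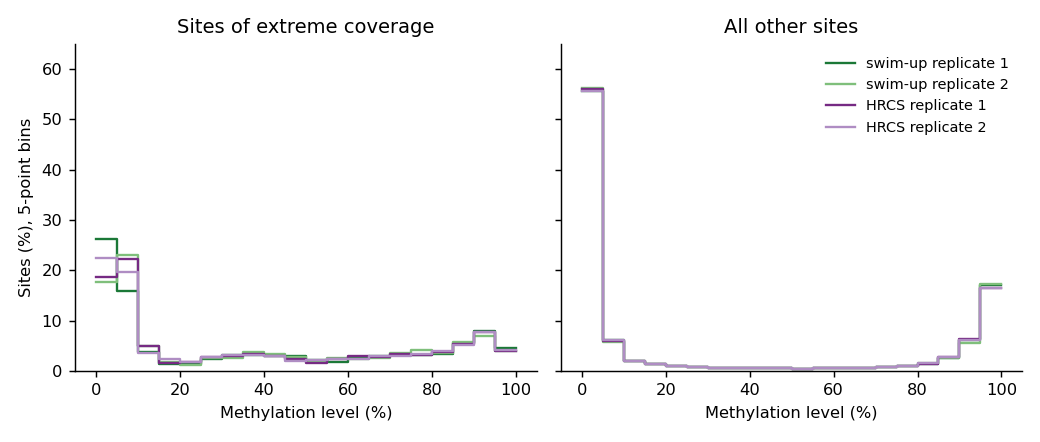
Share of CG sites (y axis, percent) by methylation level (x axis, percent, bins of 5 points) for the 1999 members (left) and the 1915406 other eligible sites (right), 1 line per library. The members spread over the whole range with 17.7 to 26.3% of sites in the lowest bin, and the other sites gather at the ends with 55.6 to 56.3% in the lowest bin.

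The same held at equal density of CG sites. Among sites with 20 or more CG sites within 100 bp, which in CpG islands are usually unmethylated, the mean level was 10.1% over 505 members and 1.36% over the other sites, and 12.3% of the members against 0.251% of the others lay between 25 and 75%. With 10 to 19 CG sites the means were 24.8 and 6.43%, and with 5 to 9 they were 46.6 and 38.6%. In sparse surroundings, with up to 4 CG sites, the order turned, with 62.9% at the members and 70.6% elsewhere, although 37.6% of the members and 11.5% of the others lay between 25 and 75%.

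By gene overlap or by sequence shared with a gene's transcript, 80 clusters with 1381 members fell into 11 groups, which took 83.7 to 85.0% of the members' reads. These groups, and the genes that name them, were chosen after the values had been seen. The largest was the ribosomal RNA block on chromosome 17, where the annotation has Gm26917, CT010467.1, Gm42418 and AY036118. It held 504 members in 2 clusters, chr17:39979946-39983611 with 394 and chr17:39984764-39985767 with 110. The block alone took 1.63 and 1.69% of all reads in the swim-up libraries versus 1.68 and 1.55% in the HRCS libraries, or 43.9 to 50.9% of the members' reads. A 150-base window of each cluster had no other copy in the assembled chromosomes of mm10.

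Every member of the block had a low level. The mean was 5.70 and 7.18% in swim-up sperm versus 6.88 and 6.30% in HRCS, so the fractions lay within the spread between the swim-up replicates, and 0 of the 504 members had a mean level above 25%. Along the block in bins of 500 bp, the level fell no lower than 4.32% and was at most 8.29% over the first 3500 bp. It then rose as the reads fell. Between 4000 and 4499 bp, where 33 CG sites held no member, the median was 0.407 and 0.476 RPM per site in swim-up sperm versus 0.201 and 0.191 in HRCS, and the level was 17.5 and 26.0% in swim-up sperm versus 22.3 and 19.3% in HRCS. At 5500 to 5999 bp the reads were back at 28.2 to 29.4 RPM and the level at 6.36 to 7.37%.

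**Figure D3:**
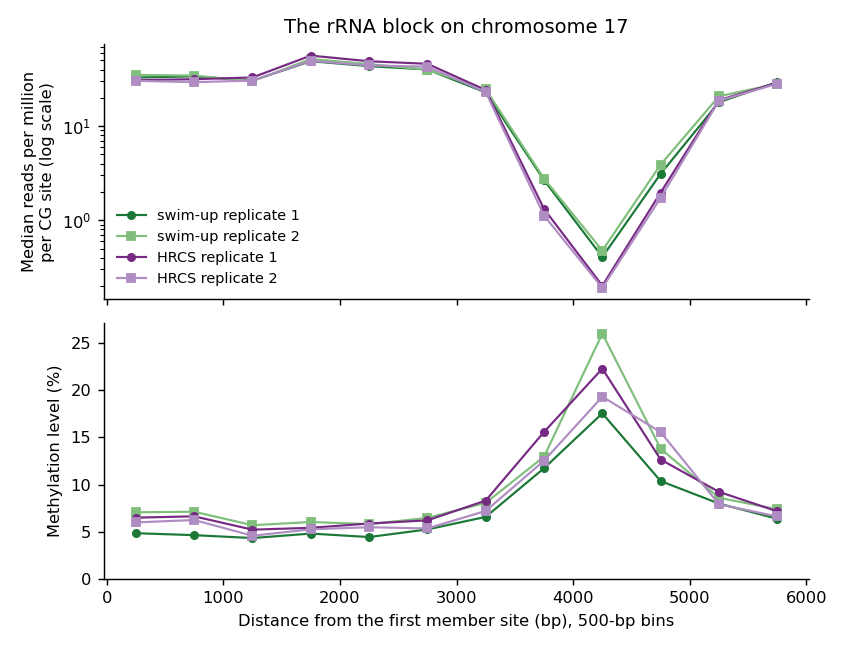
Median RPM per CG site (top, log scale) and mean methylation level in percent (bottom) in 500-bp bins along the rRNA block, by distance from its first member, 1 line per library. Reads dip and the level peaks in the bin at 4000 to 4499 bp, in all 4 libraries.

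The site with the most reads lay in satellite sequence. The windows of 6 clusters with 63 members on chromosomes 2, 9 and 12 shared at least 94.96% identity with the transcript of Gm10718, a gene model that none of them overlaps, and at least 90.2% with those of Gm10800, Gm10801 and Gm21738. Mouse satellite DNA packs the pericentromeric heterochromatin, and gene models of this kind are known to match it. In the Gm10800 cluster, chr2:98506660-98507482 with 26 members, the site at 98507306 carried 16773, 16616, 22505 and 36658 reads, the most of any site. Its level was 55.8 and 54.8% in swim-up sperm versus 56.6 and 55.9% in HRCS, and the 95% Wilson intervals of the 4 libraries, which cover counting error only, lay between 54.1 and 57.2%.

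The satellite clusters kept a middle level in every library. Their mean was 36.5 and 35.7% in swim-up sperm versus 36.2 and 36.6% in HRCS, and 52 of the 63 members lay between 25 and 75%. Apart from 2 clusters they had close levels: chr2:98506660 at 40.3 to 41.6%, chr12:3109883 at 35.6 to 36.5%, chr9:35112827 at 36.2 to 37.0% and chr9:3025509 at 34.9 to 37.5%. Gm10801, chr2:98502421-98503099 with 18 members, stood at 29.5 to 31.3%. The lone member chr9:3022862 was lower, at 6.70 and 9.72% in swim-up sperm versus 8.11 and 12.5% in HRCS. These windows matched 105 to 173 places in mm10.

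In reads, HRCS replicate 2 departed from the other libraries at this family. The 6 clusters together had 2265 and 2561 RPM in swim-up sperm, 2540 in HRCS replicate 1 and 4607 in HRCS replicate 2. The ratio of HRCS to swim-up sperm was 1.48 with it and 1.05 without it. In each of the 6 clusters HRCS replicate 2 had the highest value, while HRCS replicate 1 lay between the swim-up libraries in 5 of them.

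The 5S ribosomal RNA genes encode the small RNA of the large ribosomal subunit. Clusters overlapping n-R5s71 (chr11:74133398-74133439, 2 members, of which the one at 74133439 lies past the annotated end of the gene), n-R5s33 (chr16:33002012-33002093, 5) and n-R5s211 (chr1:46431071-46431133, 3) had low levels, with a mean of 10.9 and 6.23% in swim-up sperm versus 9.59 and 8.58% in HRCS. Their summed reads were 160 and 184 RPM in swim-up sperm versus 107 and 106 in HRCS, a ratio of 0.619, and HRCS was lower without overlap in all 3 clusters, beside 70 of all 241 clusters and 19.9% of all eligible sites. Over all clusters and sites, 97 and 23.2% were higher. Reads chose the members and these groups were picked with their values known, so nothing is read from such counts. The difference was widest at n-R5s71, with 48.5 and 65.3 RPM in swim-up sperm versus 17.6 and 16.5 in HRCS. Its member inside the gene, chr11:74133398, had 2083 and 2567 reads in swim-up sperm versus 957 and 773 in HRCS, at a level of 10.7 and 6.39% versus 10.2 and 9.57%. Without each library in turn the ratio of the group ranged from 0.579 to 0.665. It rests on the same reads that chose the members, so it is a description only.

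The next largest group lay around Pisd and Sfi1. Pisd encodes the mitochondrial enzyme that makes phosphatidylethanolamine, Sfi1 a centrin-binding protein of the centrosome, and Pisd-ps1 and Pisd-ps2 are pseudogenes of Pisd. The group had 23 clusters and 483 members on chromosomes 5, 11 and 17, of which the stretch chr11:3004264-3098289 held 438 members in 16 clusters, 1 of them in no group. Its level was 63.7 and 62.6% in swim-up sperm versus 63.4 and 63.5% in HRCS, with 263 members over 75%, 121 between 25 and 75% and 99 at or under 25%. The largest cluster, chr11:3025464-3040230 with 125 members in Pisd-ps1 and Sfi1, stood at 74.9, 74.2, 74.9 and 74.8%, and its single sites ranged from 2.90 to 97.1%. In Sfi1, chr11:3055465-3066914 with 68 members stood at 59.4 to 61.7% and chr11:3092758-3093900, which reaches Drg1, with 66 at 77.3 to 79.0%. The lowest, chr11:3023763 with 11 members and no overlapping gene, stood at 1.01 to 1.51%.

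Reads at these clusters did not move one way. Of the 23, HRCS was higher without overlap in 12 and lower in 7, beside 97 and 70 of all 241 clusters. The group had 6373 and 5830 RPM in swim-up sperm versus 6875 and 6924 in HRCS, a ratio of 1.13. Sequence of Eef2 lay in 2 clusters. At Eef2 itself, chr10:80640798-80641899 with 16 members, which also holds the small nucleolar RNA gene Snord37, the level was 32.6 and 34.9% in swim-up sperm versus 29.7 and 30.4% in HRCS. At the Eef2 pseudogene Gm11400, chr11:3048856-3053651 with 65 members inside Sfi1 and so also counted above, it was 44.7 and 45.2% against 44.0 and 44.7%, with the nearest libraries of the fractions at the same rounded value.

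Dux genes encode double homeobox transcription factors that are active in the early embryo and stand in a repeated array. On chromosome 10, 5 clusters with 62 members overlapped AW822073, Gm10807, Duxf3 and Gm4981 or shared at least 97.3% identity with the transcript of Duxf3. That identity is of a window in each cluster to the transcript, so it does not give the identity between clusters. The CG sites of different clusters need not correspond. The level differed widely between these neighbouring clusters. It was 11.6 to 13.3% in Duxf3 (chr10:57692926-57695263, 20 members), 22.0 to 23.8% in AW822073 (chr10:57686667-57689331, 33 members), 48.2 to 53.3% in Gm10807 (4 members) and 88.7 to 92.1% at the lone member in Gm4981. These gaps between clusters were larger than the spread over the 4 libraries. In reads, all 5 clusters were higher in HRCS without overlap, beside 97 of all 241, with 795 and 667 RPM in swim-up sperm versus 932 and 937 in HRCS for the group. Nothing is read from this count, since reads chose the members.

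A repeated stretch of chromosome 8 around Gm26804 and 2610005L07Rik, whose functions are not well known, gave 19 clusters with 176 members, 1 of them apart at chr8:72071564. The level of the group was 50.5 and 51.0% in swim-up sperm versus 48.2 and 46.7% in HRCS, so that the fractions did not overlap. Its clusters did not all move one way. In 2610005L07Rik, chr8:20019790-20020447 with 43 members, the level was 37.9 and 38.8% in swim-up sperm versus 32.4 and 32.6% in HRCS. In Gm10060, chr8:19784424-19785122 with 52 members, it was 37.5 and 39.0% against 35.2 and 32.0%. At chr8:19980927-19983432 with 13 members it was 72.5 and 73.4% against 70.2 and 69.2%. HRCS was also lower without overlap at chr8:19974034, chr8:19927585, chr8:19894757 and chr8:20011843. At chr8:19891661-19893257 with 28 members the values were 36.2 and 35.1% against 35.4 and 30.1%, which overlap. At chr8:19984767-19986228 with 11 members HRCS was higher, at 78.7 and 79.4% against 78.2 and 76.8% in swim-up sperm, as it was at chr8:19898528 with 3 members (88.7 and 89.4% against 87.5 and 84.5%) and chr8:19924097 with 2 (76.2 and 81.3% against 73.9 and 73.6%). The other clusters of the group overlapped in level. Of all 241 clusters, HRCS was lower in level without overlap in 49 and higher in 56. The group had 1014 and 985 RPM in swim-up sperm versus 1220 and 1219 in HRCS.

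Smaller groups lay in other gene families. Over all chromosomes, 9 clusters with 15 members shared sequence with transcripts of Snhg14, a long noncoding RNA host of tandem small nucleolar RNA genes. The gene lies in an imprinted region, and its group was kept to chromosome 7, with 7 clusters and 12 members. All 7 were higher in HRCS in reads, beside 97 of all 241 clusters. The group had 84.3 and 80.9 RPM in swim-up sperm versus 101 and 107 in HRCS. Reads chose the members, and a cluster can have passed the limit through 1 fraction alone, so nothing is read from this count. The levels of the 7 clusters ran from 40.4 to 87.5%. Clusters in or like the zinc finger genes Zfp979, Zfp984, Zfp985 and Zfp534 of chromosome 4 (9 clusters, 22 members) had a mean level of 45.3 to 46.5% and 120 to 129 RPM, with overlap between fractions. Speer4e and Speer4cos, of a family of testis-expressed genes, had 3 clusters with 12 members at 54.6 to 56.8%. They had 80.2 and 70.9 RPM in swim-up sperm versus 55.7 and 62.9 in HRCS. Most of that gap lay at chr5:15186461-15186622 (6 members), with 34.0 and 28.4 against 14.3 and 17.6 RPM. Reads chose the members, so nothing is read from this gap. In the class I histocompatibility genes H2-Q6 and H2-Q7, 21 members were nearly unmethylated in all 4 libraries, at 4.29 to 4.94%, with 96.0 and 83.1 RPM in swim-up sperm versus 81.0 and 74.7 in HRCS.

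**Figure D4:**
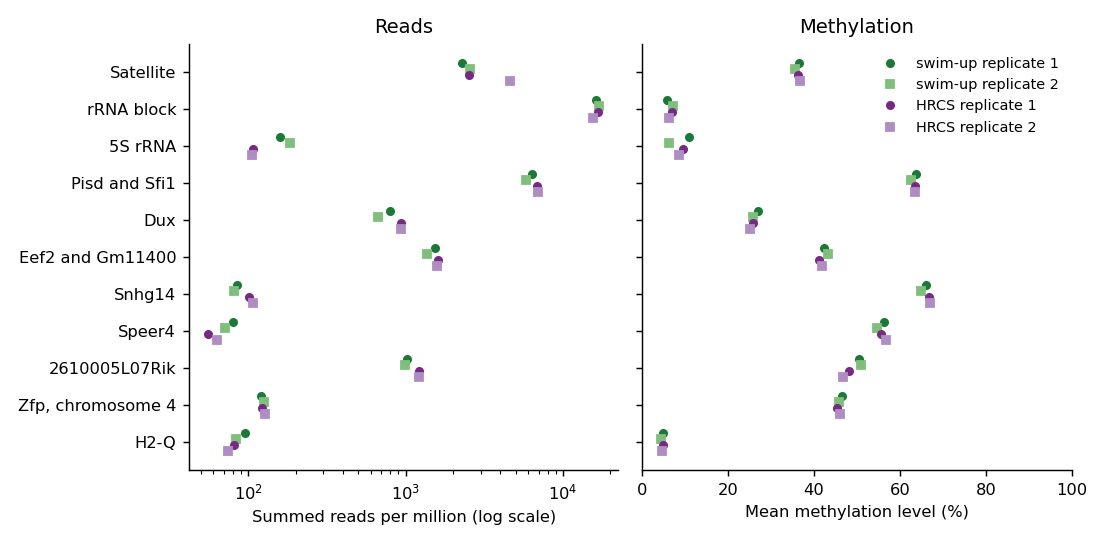
Summed RPM (left, log scale) and mean methylation level in percent (right) of 11 groups of clusters, 1 point per library. Satellite reads are highest in HRCS replicate 2 (4607 RPM) and 5S rRNA reads are lower in both HRCS libraries.

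Some of the clusters with the most reads had no annotated gene. At chr15:74916118-74917369, with 10 members, the top site carried 12334, 11789, 11883 and 10699 reads, and the cluster's level was 72.2 and 71.8% in swim-up sperm versus 69.5 and 69.7% in HRCS. Its single sites ranged from 0.529 to 96.5%. At chr8:58017763-58019341, with 13 members, 5.39% of the reads lay on the minus strand. Single sites there ranged from 1.17 to 85.3%, and the level of the cluster was 46.7 to 49.6%. At chr8:56205554-56207125, with 13 members, it was 84.0 to 87.4%. At chr19:61275583-61275752, also with 13, it was 2.70 to 4.54%. At chr3:8246376-8246471 the 2 members stood at 84.3 to 87.9%, and RPM were 60.8 and 72.5 in swim-up sperm versus 38.2 and 43.2 in HRCS.

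Between the fractions, the mean level of the members differed by -0.320 points (HRCS minus swim-up sperm, 37.9% ± 0.305 against 38.2% ± 0.0318, SD, n = 2), and that of the other sites by 0.0458 points. The difference was -0.535 points without HRCS replicate 1 and -0.105 without HRCS replicate 2, and its sign turned with the weights or members, to 1.41 points for pooled reads and 0.135 for the top 0.01% of sites. No test was run over the members, which were chosen with results known. The level of 225 of the 241 clusters differed by no more than 5 points, with a median of 0.165 and a range of -14.4 to 8.62. The level of both HRCS libraries lay above both swim-up libraries at 340 members (17.01%), where 8.82% of all eligible sites did so, and below at 369 members (18.5%), where 8.37% did. Among sites with a mean level over 25 to 75%, HRCS lay above at 77 of 545 members (14.1%), beside 18.3% of all such sites, and below at 166 (30.5%), beside 14.8%. Members share reads within a cluster, so these sites are not independent, and the part of their greater depth in these counts was not tested.

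Replicates of 1 fraction also differed by more than counting error. The chi-square per site between swim-up replicates had a mean of 3.77 at the members and 1.59 at the other sites, and between HRCS replicates 2.01 and 1.34. Pairs of libraries across the fractions gave 3.04 to 3.65 at the members, no more than the swim-up replicates did. The median absolute difference between swim-up replicates was 1.67 points at the members and 9.31 at those of the other sites that entered the comparison.

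By edgeR's quasi-likelihood test over all 1917405 eligible sites with Benjamini-Hochberg adjustment, 2 members passed an adjusted p of 0.05, where 0.000209% of all sites did (4 sites). At an unadjusted p under 0.05 there were 161 members (8.05%), beside 0.418% of all sites. Members carry many more reads, and the part of depth in these counts was not tested. Thinned to 10 reads a site, 34 of the 1999 members and 9212 of the 1917405 sites were under that p by edgeR, still a larger share of the members. With limma they were 6 of the 1999 members and 118658 of the 1917405 sites, a smaller share of the members than of all sites. So the direction of this excess turned with the test. The member chr11:74133439, just past the annotated end of the 5S gene n-R5s71, rose in HRCS. Its level was 1.10 and 0.668% in swim-up sperm, from 1727 and 2097 reads, versus 3.09 and 4.01% in HRCS, from 615 and 524 reads, a difference of 2.66 points (log2 odds ratio 2.06, adjusted p = 0.00205 by edgeR). The 95% Wilson intervals of the 4 libraries were 0.705 to 1.71, 0.398 to 1.12, 1.99 to 4.77 and 2.64 to 6.05%, which cover counting error only and not the spread between replicates. This site had fewer reads in HRCS than in swim-up sperm, and the part of that in the result was not tested.

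The member chr8:56199425, in a cluster between genes, fell in HRCS. Its level was 93.0 and 92.2% in swim-up sperm, from 1605 and 1079 reads, and 84.0 and 83.4% in HRCS, from 1850 and 1539 reads, a difference of -8.90 points (log2 odds ratio -1.29, adjusted p = 0.00161 by edgeR). Without 1 HRCS library the other is assumed to vary like the swim-up libraries. Both calls were lost in each of these fits, with adjusted p = 0.394 and 1.00 by edgeR at chr11:74133439 and 1.00 and 1.00 at chr8:56199425, although the remaining HRCS library was then still above both swim-up libraries at the first site and below both at the second. Thinning to 10 reads and limma also ended both calls. Each gave 0 calls over all eligible sites, so that loss is not particular to these 2 calls. The first was further lost without swim-up replicate 2 (adjusted p = 0.621 by edgeR) and under trended dispersion (0.141). Over all alternatives run the adjusted p ranged from 0.000149 (Fisher's exact test on pooled reads) to 1.00 at the first site and from 4.59e-21 to 1.00 at the second. The other 2 called sites, chr12:88619460 and chr17:86817614, were no members and had 14 to 42 reads per library.

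Summed over the members, RPM were 32896 and 33156 in swim-up sperm versus 34407 and 35230 in HRCS, a ratio of 1.05, and the median ratio over clusters was 1.06. Both HRCS libraries lay above both swim-up libraries at 872 members (43.6%), where 23.2% of all eligible sites did so, and below at 509 (25.5%), where 19.9% did. Reads chose the members, so nothing is read from these shares. By cluster, HRCS was higher without overlap in 97, lower in 70 and overlapping in 74. Among the largest ratios were 2.19 at chr4:118220521-118221314 (16 members, 39.0 and 55.0 against 90.9 and 115 RPM) and 1.81 at the lone member chr7:67036473 in Snhg14. The smallest were 0.211 at the lone member chr7:120954688 in an intron of Spon1, 0.300 at n-R5s71 and 0.374 at the lone member chr2:181663975. The lone members chr7:120954688, with 309 and 261 reads in swim-up sperm versus 79 and 56 in HRCS, and chr2:181663975, with 408 and 406 versus 177 and 164, passed the limit in the swim-up libraries alone, and most of the 16 members at chr4:118220521-118221314 in the HRCS libraries alone, so the choice of members fixed the direction there. Other clusters can also have passed through 1 fraction alone, and they are not listed here.

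**Figure D5:**
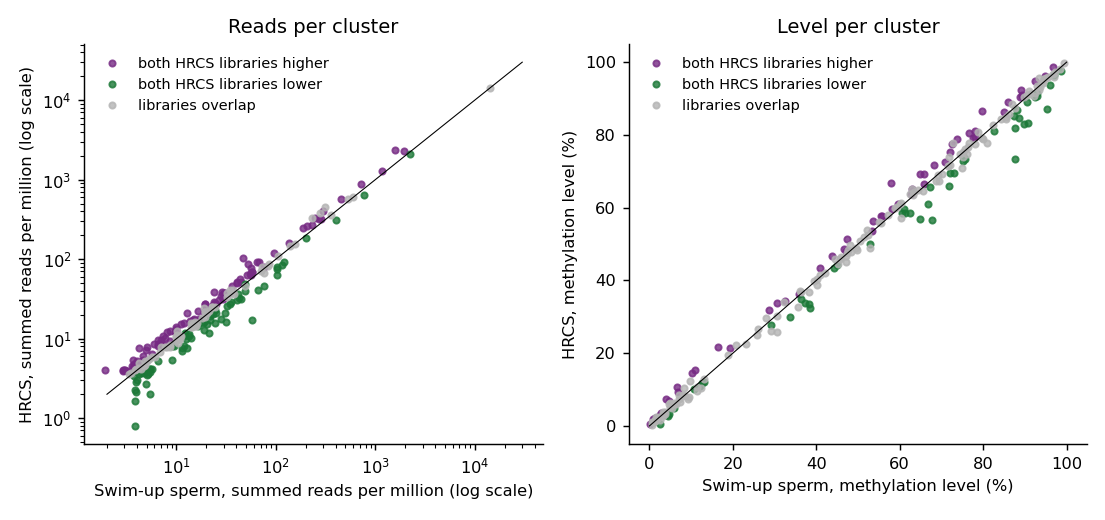
Each of the 241 clusters by swim-up sperm (x axis) and HRCS (y axis), as summed RPM (left, log scales) and mean methylation level in percent (right), means of 2 libraries. Colours mark clusters whose libraries do not overlap: 97 higher and 70 lower in reads, 56 higher and 49 lower in level. Points lie near the line of equality.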

How the data were processed

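TGBS was performed on 2 swim-up sperm versus 2 HRCS libraries. Per the study's methods the authors captured genomic DNA with SureSelect probes, sequenced single reads after post-bisulfite adapter tagging and mapped them to mm9 with Bmap; removal of duplicate reads and a minimum coverage are not given in the sources used here. The deposited tables hold raw counts, for each CG site and strand, of reads called methylated and of reads in total. The columns have no names, and the count that never exceeds the total was taken as methylated. With that reading, the other sites with 20 or more CG sites within 100 bp, surroundings that are usually unmethylated, had a mean level of 1.36%.

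Strands were merged, and eligible sites, members and clusters were defined as in the results. RPM (1000000 times the reads of a site or group over all reads at CG sites of its library) was computed here. Levels are means over sites, then over the 2 libraries of a fraction. Methylated and unmethylated counts of every eligible site were fitted with edgeR 4.0.16 (glmQLFit, 1 dispersion, a term per library, methylated, methylated in HRCS) in R 4.3.3, with Benjamini-Hochberg adjustment. The fit was tested on simulated data with changes larger than those at the called members, so that test does not bear on calls of their size. Copies and transcript matches were found with blastn 2.17.0 in the assembled chromosomes of mm10 and in GENCODE M21. Other steps used Python 3.11.15. Intervals cover counting error only and treat each read as a separate molecule. Duplicates made by PCR add no molecules, so the intervals are too narrow if such reads were kept. The main fit did not pair the libraries by replicate number. The correlation of same-numbered deviations was 0.00116 over all eligible sites and -0.0547 over the members. Counting error enters each deviation, so these values cannot show whether same-numbered libraries were related, and the labels do not say.

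The members and lists were chosen with earlier results of these data known. Clusters named by rule were the 10 with most reads at a site, the 5 with most members, the 3 largest ratios of reads each way without overlap and the 5 most read with a level of 25 to 75%. Sites named by rule were up to 5 called members each way and the 3 sites on each side of the limit, of which 1 member is not reported here. Groups by gene, and the genes themselves, were chosen after their values were seen, as was the repeat without the satellite clusters. Alternatives were other percentiles, read minimums, gaps and averages, leaving out each library, thinning to 10 reads, trended dispersion, a replicate block, limma 3.58.1 and Fisher's exact test.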

Additional observations from a re-analysis of the deposited data

How the results depend on the processing

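Choosing the members anew without each library in turn gave 1921 to 2037 of them. With the 1999 members kept, leaving a library out of the mean gave levels of 38.18 to 38.22% in swim-up sperm versus 37.7 to 38.1% in HRCS. The differences then ran from -0.535 to -0.105 points. Each such level is that of the remaining library of the fraction. The level of members chosen anew without a library was not computed. The number of members moved to 10146 for the top 0.5% of sites, 207 for the top 0.01% and 972 with a minimum of 20 reads, all 972 among the 1999. Other averages or members moved the mean level in swim-up sperm and HRCS to 28.6 and 30.0% for pooled reads, 50.9 and 50.9% for cluster means, 22.4 and 22.2% for the top 0.5%, 13.5 and 13.7% for the top 0.01%, 38.7 and 38.4% for members in all 4 libraries and 51.3 and 51.3% without clusters of 10 or more members. Thinned to 10 reads a site, swim-up sperm stood at 38.1%. The difference between fractions was 1.41 points for pooled reads, and 1.21 without the satellite clusters. It was 0.135 for the top 0.01%, -0.0695 for cluster means, -0.0925 after thinning and -0.0198 without the large clusters. So its sign turned with the weights, and the cause was not tested.

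Calls in the comparison of levels depended on the libraries and the test. Over all sites edgeR called 0 to 10 without 1 library (0 to 9 members), where the runs without HRCS replicate 1 or 2 gave 0 calls and 5029 and 4823 sites (58 and 63 members) at an unadjusted p under 0.05. Thinning gave 0 calls (9212 sites and 34 members unadjusted, a larger share of the members). Limma also gave 0 (118658 sites and 6 members unadjusted, a smaller share of the members). A minimum of 20 reads gave 2 calls over all sites, and these were members. Trended dispersion gave 6 calls over all sites, all 6 lower in HRCS, of which 4 were members. Of these 4 members 1 was also called without the trend, and chr11:74133439 had an adjusted p of 0.141 by edgeR. Fisher's exact test on pooled reads, which ignores the spread between replicates, gave 165 calls over all sites and 54 among members. With a replicate block edgeR called the same number, 4 sites and 2 members. The number of clusters was 283 with a gap of 500 bp and 205 with 2 kb. The ratio of reads at the members, which the choice of members used, ran from 1.037 to 1.067. The median other site had 24 to 31 reads and the median member 636 to 870, and the smallest difference detectable at either depth was not computed.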
